A study of Mus musculus with 24 samples.

Results

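Collagen chains, laminin chains, nidogens, integrin chains and the glycoproteins fibronectin, tenascin-C and Sparc were followed in mouse cortex 1 day after an experimental stroke. Members were taken by gene symbol and kept where all 4 deposited tables listed them. The symbols were those of numbered collagen, laminin, nidogen and integrin chains, with Itgal, Itgam, Itgav, Itgax, Fn1, Tnc and Sparc. Other integrin symbols with a letter in place of the chain number were not taken. This gave 58 genes of 14014 listed in all 4 tables. They comprised 25 collagen chains, 10 laminin chains, 2 nidogens, 16 integrin chains, 3 glycoproteins and 2 genes, Itgb1bp1 and Itgb3bp, whose products are no chain of these families. The symbols of 4 further genes fitted but were missing from at least 1 table (Col5a3, Col18a1, Col20a1 and Itga11), so they are no members.

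The animals were male mice aged 3 to 4 months whose middle cerebral artery had been closed with a filament for 1 h, after which blood flow was restored for 1 day (transient middle cerebral artery occlusion, tMCAo). All of them, controls included, carry the strain label C57BL/6N-Cdr1asem1Nikr and had the occlusion, so no group without surgery entered any comparison. WT animals were wild type, and ciRS-7 KO animals lacked ciRS-7 (Cdr1as), a circular RNA with many sites for miR-7. From each animal came 2 cortex libraries, marked CL and PI in labels that do not spell the marks out. The 24 libraries thus made 4 groups of 6, WT and KO for each mark. The series set out to compare gene expression of WT and ciRS-7 KO animals after the occlusion.

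The extracellular matrix of the brain is sparse and is concentrated in the basement membrane around blood vessels and at the pial surface. Collagen IV and laminin networks, joined by nidogens and perlecan, form that membrane, while fibrillar collagens such as type I and type III are made mainly by fibroblasts of the meninges and of larger vessels. Integrins are pairs of an alpha and a beta chain that span the cell membrane and tie matrix, or ligands on other cells, to the actin cytoskeleton. Endothelial cells and astrocyte endfeet hold on to the vascular basement membrane by integrins that share the beta chain Itgb1, whereas the beta chain Itgb2 pairs with alpha chains of leukocytes and microglia such as Itgam (CD11b).

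Expression was deposited as log2 CPM, the log2 of the reads of a gene after libraries are scaled to the same total. The effective depth read from the values was 3.76 to 10.5 M reads per library (median 6.92), lowest in CL KO replicate 6, and 3 reads corresponded to 0.285 to 0.799 CPM. No member had all recoverable values of a group at or under that limit. In every gene the 2 lowest and the 2 highest of a group's 6 deposited values were tied at the quartiles of the group, so the lowest and highest values given here are those quartiles and understate the spread between animals. Tests therefore compared trimmed means of the 4 values per group that can be recovered, with n = 6 libraries per group, two-sided, and a gene counted as called at a Benjamini-Hochberg adjusted p under 0.05 over all genes of its table. Differences are differences of these trimmed means on the log2 scale, with their standard error (SE). The targeted RNA Cdr1as was at 2610 to 2931 CPM in PI WT and at most 0.166 CPM in PI KO, and at 3434 to 3801 CPM in CL WT and at most 0.0601 CPM in CL KO, so the libraries matched their genotype labels. The RNA came from whole tissue, in which more cells of a type and more RNA per cell cannot be told apart.

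Levels between genes were compared only per length, as CPM per kilobase (kb) of the longest coding transcript in GENCODE M21, and without a test. In CL WT the integrin alpha chain Itgav stood highest of the 58, with a median of 36.5 CPM per kb (34.2 to 38.6). Sparc, a secreted collagen-binding glycoprotein, followed at 25.9 CPM per kb (24.4 to 26.0), then Itgb8, a beta partner of Itgav, at 22.1 (21.3 to 22.1), and Itgb1 at 19.7 (18.9 to 20.2). The deposited ranges of these 4 genes did not overlap in CL WT. Among collagens the highest were not basement membrane chains but Col19a1 at 7.99 CPM per kb (7.73 to 8.26) and Col25a1, a membrane-bound collagen of neurons, at 6.78 (6.51 to 7.12). Col4a1 and Col4a2, the main chains of basement membrane collagen, stood at 3.02 and 2.74 CPM per kb, and their ranges overlapped. The highest laminin chain was the shared gamma chain Lamc1 at 3.85 CPM per kb, with Lama2 at 2.57, while both laminin beta chains stood at 1.83. Nid1 was at 1.07 and Nid2 at 0.393 CPM per kb. The lowest levels were in Col6a3 at 0.168, Col27a1 at 0.183, Col1a1 at 0.232 and Tnc at 0.248 CPM per kb.

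**Figure D1:**
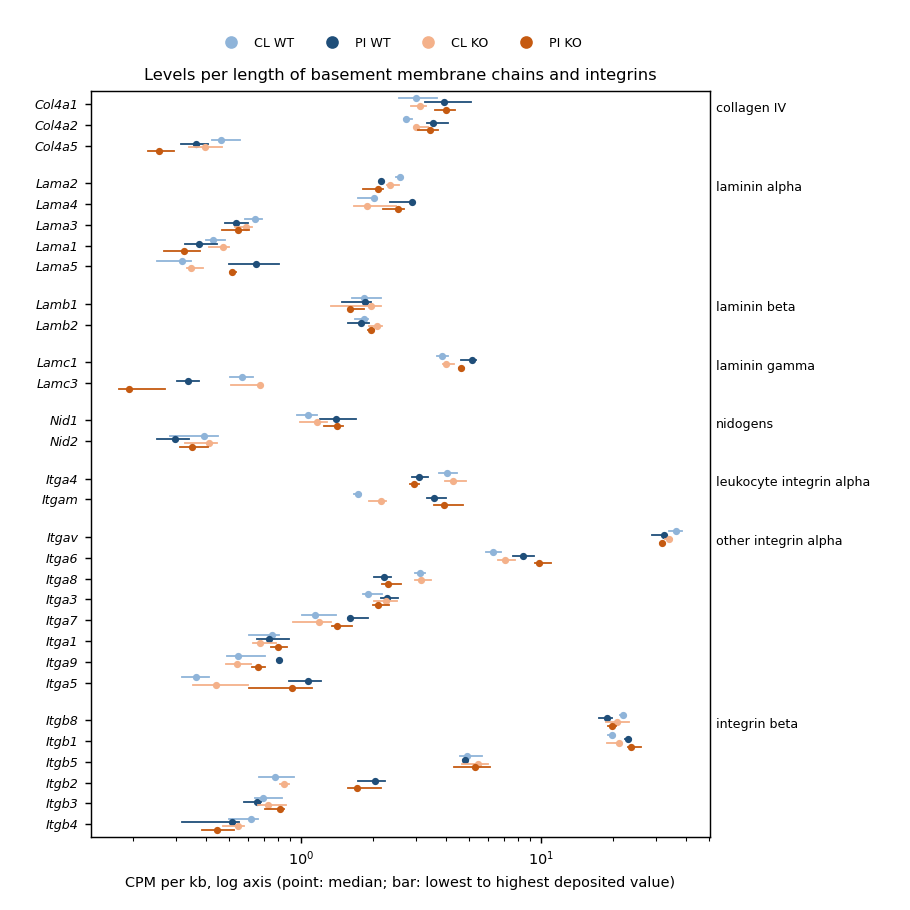
Level per length of the basement membrane chains and integrins in each of the 4 groups, as CPM per kb on a log axis (point: median of 6 deposited values; bar: lowest to highest). Itgav, Itgb8 and Itgb1 lie highest in every group, and Itgb2, Itga5 and Lama5 are among the chains with visibly higher PI than CL points.

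The comparison of PI with CL cortex within a genotype asked which members differed between the 2 samples of the same animals. In WT, 21 of the 58 members were called, 11 higher and 10 lower in PI, where 10.6% of all genes in that table were called (5.2% higher and 5.4% lower). At an unadjusted p below 0.05 there were 30 members (51.7%), beside 23.9% of all genes. In KO, 10 members were called, 5 higher and 5 lower, against 10% of all genes (5.11% higher and 4.94% lower), and 21 members (36.2%) reached an unadjusted p below 0.05, beside 24.9% of all genes. The median difference over the 58 members was 0.10 in WT and -0.02 in KO, beside 0.01 and 0.00 over all genes. Deposited PI and CL ranges were apart for 32 members in WT and 27 in KO, and for 32.8% and 34.3% of all genes. Ranges given as apart for single members below are to be read beside these shares. Of the called members, 5 were at least 2-fold higher in PI in WT (Tnc, Itga5, Itgb2, Lama5 and Itgam) and none was 2-fold lower, while in KO 2 were at least 2-fold higher (Tnc and Itgb2) and 1 was at least 2-fold lower (Lamc3).

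CL and PI libraries of equal number come from the same animal by their titles, and a fit that takes the animal as a block could be made on the deposited values only. The trimmed-mean tests of PI against CL and of the interaction are unpaired and treat these libraries as independent. Limma on those values called 41 members in WT and 34 in KO, and 42 and 35 with the replicate block. Those counts rest on the understated spread and are not used further. In the other direction, a prior variance with no trend over expression level left 12 calls in WT and 8 in KO, and the calls lost are named beside their values. With the median gene of every group set to 0, members split into 11 higher and 10 lower in WT as before, and into 4 higher and 5 lower in KO, while over all genes the share of calls that were higher went from 49.1% to 37.7% in WT and from 50.8% to 36.7% in KO. That centring moved differences by 0.03 in WT and 0.04 in KO.

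**Figure D2:**
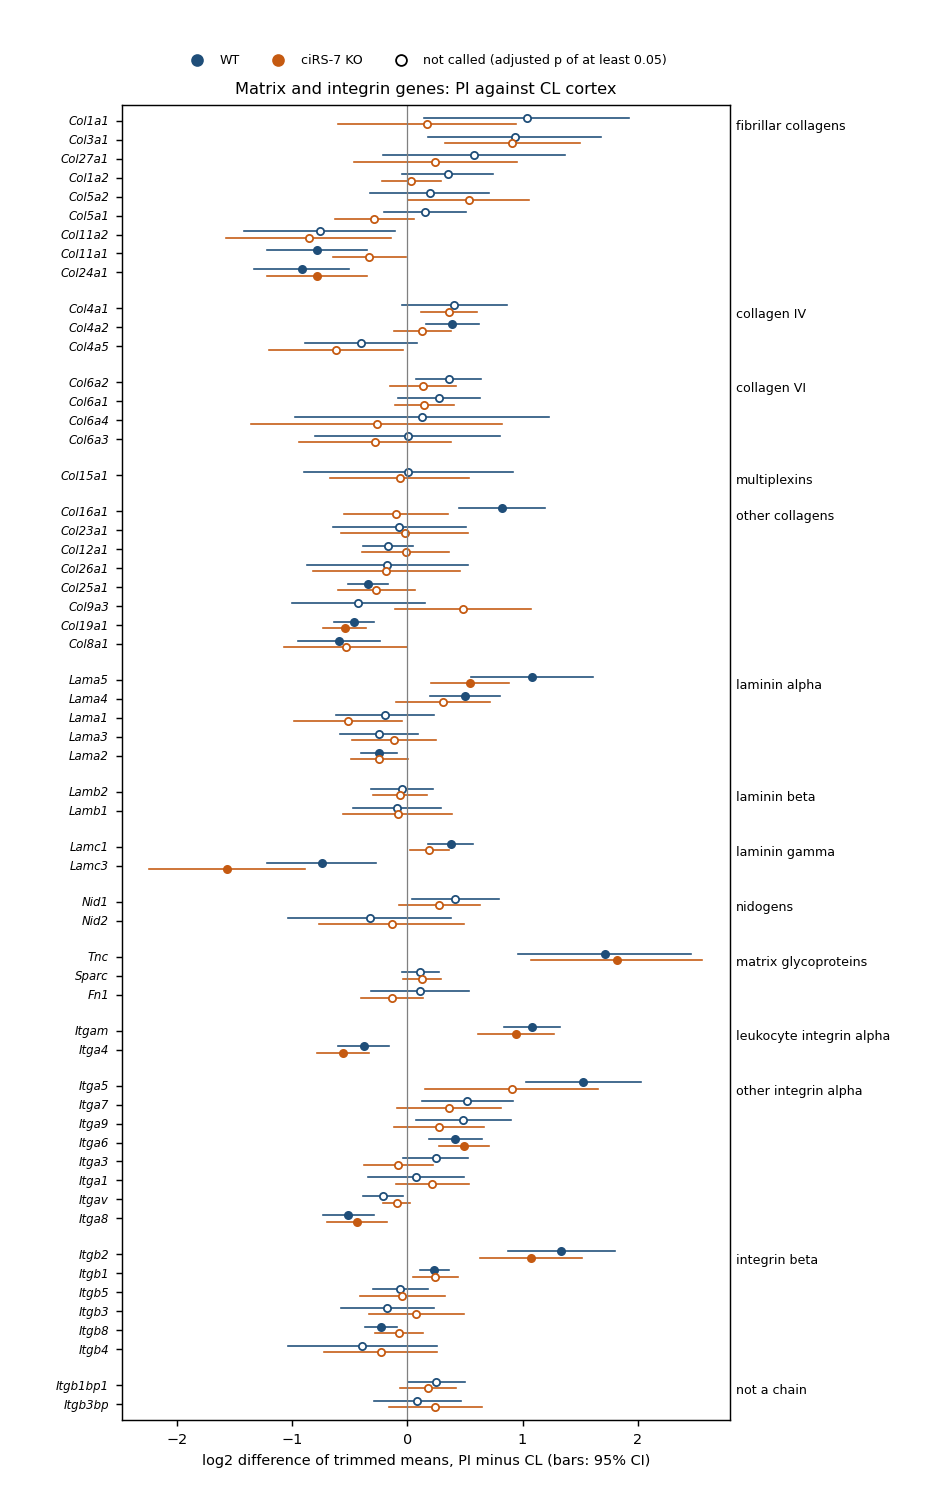
Difference between PI and CL for the members by family, as the log2 difference of trimmed means with its 95% confidence interval, in WT (blue) and ciRS-7 KO (orange); filled points passed an adjusted p of 0.05. Tnc, Itga5, Itgb2, Itgam and Lama5 lie farthest right in WT, and Col24a1, Col11a1 and Lamc3 are the called members farthest left.

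The stretches of 250 bases before the start of transcription are shown for 5 members on which these results turn, 4 that were higher in PI and the fibrillar collagen Col24a1, which was lower. They are taken from RefSeq on GRCm38.p6 and run 5′ to 3′ on the strand of the gene. Tnc is at chr4:64047016-64047265 (minus strand), Itgam at chr7:128062390-128062639 (plus), Itga5 at chr15:103366792-103367041 (minus), Lama5 at chr2:180225860-180226109 (minus) and Col24a1 at chr3:145292222-145292471 (plus). Capitals mark every GC box, GGGCGG or its reverse complement CCGCCC, the core letters bound by Sp1 and related factors.
Tnc: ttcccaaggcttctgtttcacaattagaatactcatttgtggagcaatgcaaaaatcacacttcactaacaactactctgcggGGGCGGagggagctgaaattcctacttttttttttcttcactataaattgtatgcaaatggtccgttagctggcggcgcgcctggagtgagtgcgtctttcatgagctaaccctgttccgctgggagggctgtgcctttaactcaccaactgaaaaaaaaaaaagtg
Itgam: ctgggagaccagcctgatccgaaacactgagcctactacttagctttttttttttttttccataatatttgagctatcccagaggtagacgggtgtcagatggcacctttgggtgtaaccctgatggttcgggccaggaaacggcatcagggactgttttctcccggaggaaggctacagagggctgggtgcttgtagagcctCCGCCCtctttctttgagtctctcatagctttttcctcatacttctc
Itga5: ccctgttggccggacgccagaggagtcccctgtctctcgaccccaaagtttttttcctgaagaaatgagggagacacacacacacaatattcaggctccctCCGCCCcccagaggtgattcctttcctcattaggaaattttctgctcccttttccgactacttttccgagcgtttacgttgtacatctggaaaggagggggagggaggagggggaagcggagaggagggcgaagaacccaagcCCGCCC
Lama5: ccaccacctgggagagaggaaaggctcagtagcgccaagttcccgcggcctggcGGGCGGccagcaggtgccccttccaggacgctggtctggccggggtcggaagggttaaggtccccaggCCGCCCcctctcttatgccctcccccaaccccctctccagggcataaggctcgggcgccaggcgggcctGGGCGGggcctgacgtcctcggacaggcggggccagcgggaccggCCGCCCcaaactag
Col24a1: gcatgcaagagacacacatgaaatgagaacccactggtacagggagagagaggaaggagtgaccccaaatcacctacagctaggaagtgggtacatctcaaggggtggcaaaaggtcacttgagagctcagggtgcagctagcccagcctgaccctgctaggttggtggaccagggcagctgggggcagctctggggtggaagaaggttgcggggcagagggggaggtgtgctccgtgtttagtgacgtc
Lama5 held 4 such boxes, Itga5 2, Tnc and Itgam 1 each and Col24a1 none, with 19, 11, 8, 6 and 3 CpG pairs in the same order. A RefSeq window was at hand for 40 members, and 23 of them (57.5%) held a GC box on either strand in the 250 bases, where 35.4% of the 27025 genes with such a window did. Those genes were taken whether or not these data list them, while every member is listed, so the shares come from unlike sets. All 7 members with a window that were called higher in at least 1 genotype held one (Tnc, Itgam, Itga5, Itgb1, Lama5, Col16a1 and Col4a2), against 4 of 9 called lower and 12 of 24 not called. Letters of 3 other motifs, read on both strands, were rare. TGANTCA, the letters of AP-1, was in 1 member (Col6a1) and 7.82% of genes, the STAT motif TTCCNGGAA in 0 members and 1.09% of genes, and the PU.1 core GAGGAAGT in 1 member (Itgav) and 2.79% of genes. Such matches describe the letters of these windows and show no binding.

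Tnc encodes tenascin-C, a large matrix glycoprotein that is low in the adult brain and is made by reactive astrocytes and other cells after injury. It lies on chromosome 4 (63959785 to 64047015, minus strand, in GRCm38 with GENCODE M21, as for all positions of genes here). In WT its deposited values had a lowest, median and highest of 0.41, 0.82 and 1.18 log2 CPM in CL and 2.05, 2.48 and 3.02 in PI. In KO they were 0.15, 0.62 and 1.07 in CL and 2.04, 2.46 and 2.80 in PI. The deposited PI and CL values did not overlap in either genotype, which was so for 32.8% of all genes in WT and 34.3% in KO. Tnc rose by 1.71 (SE 0.35, 3.28-fold, adjusted p = 0.00699) in WT and by 1.82 (SE 0.34, 3.53-fold, adjusted p = 0.00575) in KO, the largest differences of any member in either genotype. Per length, its median went from 0.248 to 0.788 CPM per kb in WT and from 0.217 to 0.772 in KO. The other glycoproteins of the set, both more abundant per length in CL WT, were not called. Sparc differed by 0.11 in WT and 0.13 in KO (adjusted p = 0.408 and 0.328), and Fn1, fibronectin, by 0.11 and -0.13 (adjusted p = 0.793 and 0.566).

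The fibrillar collagens, 9 chains that build banded fibres, did not move as 1 group. In WT 2 of 9 were called and both were lower, Col24a1 and Col11a1, and in KO Col24a1 alone was called. Those calls made up 22.2% and 11.1% of the chains, beside 10.6% and 10% of all genes. Col24a1 (chromosome 3, 145292472 to 145552011) had a lowest, median and highest of 2.77, 3.09 and 3.30 log2 CPM in CL WT and 1.99, 2.12 and 2.29 in PI WT. In KO the values were 2.72, 2.84 and 3.11 in CL and 1.94, 2.01 and 2.36 in PI. It fell by 0.92 (SE 0.19, adjusted p = 0.00817) in WT and by 0.79 (SE 0.20, adjusted p = 0.0277) in KO, with PI and CL values apart in both. Col11a1 (chromosome 3, 114030540 to 114220718), a minor chain of thin fibrils, went from a median of 4.12 log2 CPM in CL WT to 3.32 in PI WT. In WT it fell by 0.79 (SE 0.20, adjusted p = 0.0236), whereas in KO, with a CL median of 3.55, the difference was -0.33 (SE 0.15, adjusted p = 0.179). With no trend in the prior variance the calls of Col11a1 in WT (adjusted p = 0.085) and Col24a1 in KO (adjusted p = 0.0594) were lost.

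The chains of the interstitial collagens lay on the other side of 0 and were not called. Col3a1 (chromosome 1, 45311538 to 45349706), the type III chain, had a lowest, median and highest of 0.26, 1.06 and 1.29 log2 CPM in CL WT and 1.61, 1.79 and 2.02 in PI WT, and of 1.16, 1.46 and 1.94 in CL KO and 2.23, 2.43 and 2.64 in PI KO. Although the ranges did not overlap in either genotype, the difference of 0.93 (SE 0.35) in WT had an adjusted p of 0.115 and that of 0.91 (SE 0.27) in KO an adjusted p of 0.0517. Col1a1 differed by 1.03 (SE 0.41, adjusted p = 0.14) in WT and by 0.17 (SE 0.36, adjusted p = 0.818) in KO. Its partner in type I collagen, Col1a2, differed by 0.35 in WT and 0.03 in KO (adjusted p = 0.273 and 0.901). Over the 7 fibrillar chains not called in WT, differences ran from -0.76 to 1.03, and over the 8 not called in KO from -0.86 to 0.91.

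Collagen IV forms the sheet of the vascular basement membrane, and of its 3 listed chains only Col4a2 (chromosome 8, 11312805 to 11449287) was called, in WT. Col4a2 had a lowest, median and highest of 4.12, 4.15 and 4.22 log2 CPM in CL WT and 4.43, 4.51 and 4.72 in PI WT, and rose by 0.39 (SE 0.11, 1.31-fold, adjusted p = 0.0326), a call lost with no trend in the prior variance (adjusted p = 0.0746). In KO it differed by 0.13 (SE 0.11, adjusted p = 0.545). Col4a1, which lies head to head with Col4a2 and shares 22 exon bases with it on the other strand, differed by 0.41 in WT and 0.36 in KO (adjusted p = 0.269 and 0.0628). Col4a5 lay below 0 in both genotypes, at -0.40 and -0.62 (adjusted p = 0.31 and 0.173).

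Laminins are crosses of an alpha, a beta and a gamma chain, and 5 of the 10 listed chains were called in WT, 3 higher and 2 lower, with 1 higher and 1 lower in KO. Those calls made up 50% and 20% of the chains, beside 10.6% and 10% of all genes. Lama5 (chromosome 2, 180176373 to 180225859), an alpha chain of mature endothelial basement membrane, stood at a lowest, median and highest of 1.51, 1.87 and 1.98 log2 CPM in CL WT and 2.51, 2.89 and 3.21 in PI WT. In KO it stood at 1.93, 1.98 and 2.15 in CL and 2.53, 2.55 and 2.61 in PI. It rose by 1.08 (SE 0.25, 2.12-fold, adjusted p = 0.0137) in WT and by 0.54 (SE 0.16, 1.46-fold, adjusted p = 0.0448) in KO, with no overlap of PI and CL values in either. With the median gene of every group set to 0, the call in KO was lost (0.51, adjusted p = 0.0546). Lama4 (chromosome 10, 38965515 to 39110188), the other endothelial alpha chain, rose by 0.50 (SE 0.14, adjusted p = 0.0394) in WT and differed by 0.31 (SE 0.19, adjusted p = 0.338) in KO. Lamc1 (chromosome 1, 153218922 to 153332786), the gamma chain of most laminins, rose by 0.37 (SE 0.09, adjusted p = 0.0194) in WT and differed by 0.19 (SE 0.08, adjusted p = 0.155) in KO. The WT calls of Lama4 and Lamc1 were lost with no trend in the prior variance (adjusted p = 0.092 and 0.0608).

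Lamc3 (chromosome 2, 31887291 to 31946539), a gamma chain found at the pial basement membrane and in cortical neurons, went the other way. Its lowest, median and highest values were 1.57, 1.74 and 1.89 log2 CPM in CL WT and 0.83, 0.99 and 1.14 in PI WT. In KO they were 1.58, 1.98 and 2.01 in CL and 0.03, 0.17 and 0.67 in PI, the lowest PI values of any called member. It fell by 0.75 (SE 0.22, adjusted p = 0.0476) in WT and by 1.57 (SE 0.31, adjusted p = 0.00793) in KO. A test of the difference between those changes had an adjusted p of 0.992 by the trimmed-mean test. Lama2 (chromosome 10, 26980036 to 27619758), an alpha chain of astrocyte and pericyte basement membrane, fell by 0.25 (SE 0.07, adjusted p = 0.0431) in WT, from a median of 4.63 to 4.37 log2 CPM, and differed by -0.24 (SE 0.11, adjusted p = 0.202) in KO. Neither beta chain was called, with Lamb2 at -0.05 and -0.06 (adjusted p = 0.873 and 0.779), nor was a nidogen, with Nid1 at 0.42 and 0.28 in WT and KO (adjusted p = 0.164 and 0.318).

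Among the 8 other collagens, which carry short or interrupted triple helices, 4 were called in WT, 1 higher and 3 lower, and 1 was called in KO. The shares were 50% and 12.5%, beside 10.6% and 10% of all genes. Col19a1 (chromosome 1, 24261890 to 24587472), a collagen made by interneurons, stood at a lowest, median and highest of 5.04, 5.09 and 5.14 log2 CPM in CL WT and 4.55, 4.61 and 4.72 in PI WT. In KO it stood at 5.06, 5.09 and 5.14 in CL and 4.48, 4.52 and 4.66 in PI, so the ranges were narrow and apart in both genotypes. It fell by 0.47 (SE 0.08, adjusted p = 0.00268) in WT and by 0.55 (SE 0.09, adjusted p = 0.00185) in KO. Col25a1 (chromosome 3, 130131501 to 130599877) went from a median of 5.50 log2 CPM in CL WT to 5.15 in PI WT, a difference of -0.34 (SE 0.08, adjusted p = 0.0141), and differed by -0.27 (SE 0.15, adjusted p = 0.31) in KO. Col8a1 (chromosome 16, 57624258 to 57754737), a short-chain collagen of vessel walls, dropped by 0.59 (SE 0.17, adjusted p = 0.0376) in WT and differed by -0.54 (SE 0.25, adjusted p = 0.199) in KO. With no trend in the prior variance the WT call of Col8a1 was lost (adjusted p = 0.0797).

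Col16a1 (chromosome 4, 130047840 to 130099283), a fibril-associated collagen, was the called member whose KO difference had the other sign. In WT its lowest, median and highest values were 1.75, 1.96 and 2.10 log2 CPM in CL and 2.62, 2.72 and 2.93 in PI. In KO they were 2.21, 2.32 and 2.52 in CL and 2.003, 2.20 and 2.54 in PI. The WT groups were apart and the KO groups overlapped. Col16a1 rose by 0.82 (SE 0.17, 1.76-fold, adjusted p = 0.00907) in WT and differed by -0.10 (SE 0.21, adjusted p = 0.822) in KO. The 4 collagen VI chains, which form beaded filaments beside basement membranes, were not called in either genotype, at 0.00 to 0.36 in WT and -0.28 to 0.14 in KO, and Col6a2 was nearest to the threshold in WT (0.36, adjusted p = 0.111). Col15a1, a multiplexin of the outer basement membrane, was at 0.01 in WT and -0.07 in KO (adjusted p = 0.995 and 0.914).

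Of 16 integrin chains, 8 were called in WT (5 higher, 3 lower) and 5 in KO (3 higher, 2 lower). The shares were 50% and 31.2%, beside 10.6% and 10% of all genes. Laminin chains had shares of 50% and 20%, and collagen chains of 28% and 8%. The alpha and beta chain of the leukocyte integrin Mac-1, which binds complement fragments, fibrinogen and ICAM-1, rose together. Itgam (chromosome 7, 128062640 to 128118491) had a lowest, median and highest of 2.95, 3.01 and 3.06 log2 CPM in CL WT and 3.97, 4.07 and 4.24 in PI WT, and of 3.17, 3.34 and 3.40 in CL KO and 4.06, 4.20 and 4.47 in PI KO. It rose by 1.08 (SE 0.11, 2.12-fold, adjusted p = 0.000108) in WT, the smallest adjusted p of any member there, and by 0.95 (SE 0.15, 1.93-fold, adjusted p = 0.00212) in KO. Itgb2 (chromosome 10, 77530252 to 77565708) had a lowest, median and highest of 0.99, 1.21 and 1.47 log2 CPM in CL WT and 2.36, 2.59 and 2.73 in PI WT, and of 1.28, 1.33 and 1.41 in CL KO and 2.21, 2.34 and 2.68 in PI KO. It rose by 1.34 (SE 0.22, 2.53-fold, adjusted p = 0.00182) in WT and by 1.08 (SE 0.21, 2.11-fold, adjusted p = 0.00614) in KO. For both genes the deposited PI values were all above the CL values. In the annotation 3450 of the 5024 exon bases of Itgam (68.7%) are also exons of the gene model Gm49368 on the same strand, whose level was not analysed here, so the level of Itgam depends on how shared reads were assigned.

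The other alpha chain of leukocytes, Itga4, partner of Itgb1 in the receptor for VCAM-1, fell in both genotypes. Itga4 (chromosome 2, 79255426 to 79333123) stood at a lowest, median and highest of 5.19, 5.31 and 5.44 log2 CPM in CL WT and 4.82, 4.92 and 5.05 in PI WT, and at 5.28, 5.39 and 5.57 in CL KO and 4.79, 4.85 and 4.92 in PI KO. It fell by 0.38 (SE 0.10, adjusted p = 0.0295) in WT and by 0.56 (SE 0.10, adjusted p = 0.0053) in KO, and the WT call was lost with no trend in the prior variance (adjusted p = 0.0862). Of its exon bases, 8.04% lie under exons of Cerkl on the opposite strand. Per length its CL WT level of 4.06 CPM per kb was above that of Itgam (1.72) and Itgb2 (0.777).

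Of the 8 other alpha chains, Itga5 and Itga6 were higher and Itga8 was lower. Itga5 (chromosome 15, 103344286 to 103366763), the alpha chain of the main fibronectin receptor, stood at a lowest, median and highest of 0.49, 0.68 and 0.86 log2 CPM in CL WT and 1.97, 2.23 and 2.40 in PI WT. In KO it stood at 0.63, 0.96 and 1.39 in CL and 1.41, 2.01 and 2.28 in PI, so that the highest CL and the lowest PI values nearly met. It rose by 1.53 (SE 0.23, 2.89-fold, adjusted p = 0.00117) in WT, whereas the difference of 0.90 (SE 0.35) in KO was not called (adjusted p = 0.124). Itga6 (chromosome 2, 71745616 to 71858416), a laminin-binding chain of endothelium, had medians of 4.76 log2 CPM in CL WT and 5.18 in PI WT and of 4.93 in CL KO and 5.40 in PI KO. It rose by 0.42 (SE 0.11, adjusted p = 0.025) in WT and by 0.49 (SE 0.10, adjusted p = 0.00979) in KO, and the WT call was lost with no trend in the prior variance (adjusted p = 0.079).

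Itga8 (chromosome 2, 12106632 to 12301922), which pairs with Itgb1 to bind nephronectin and fibronectin, had a lowest, median and highest of 4.12, 4.18 and 4.25 log2 CPM in CL WT and 3.54, 3.68 and 3.78 in PI WT, and of 4.11, 4.20 and 4.33 in CL KO and 3.66, 3.75 and 3.92 in PI KO. It fell by 0.52 (SE 0.10, adjusted p = 0.00639) in WT and by 0.44 (SE 0.12, adjusted p = 0.0363) in KO. The KO call was lost with no trend in the prior variance (adjusted p = 0.0736). The 5 other alpha chains without a call in WT lay between -0.21 and 0.52, with adjusted p of at least 0.094.

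The remaining calls were beta chains and were small. Itgb1 (chromosome 8, 128685654 to 128733200), the common partner of the matrix-binding alpha chains, rose by 0.23 (SE 0.06, 1.17-fold, adjusted p = 0.023) in WT, from a median of 6.23 to 6.46 log2 CPM, and differed by 0.24 (SE 0.09, adjusted p = 0.114) in KO. Itgb8 (chromosome 12, 119158022 to 119238802), which with Itgav activates TGF-beta on astrocytes and other cells, fell by 0.23 (SE 0.06, adjusted p = 0.0408) in WT and differed by -0.07 (SE 0.10, adjusted p = 0.703) in KO. Both WT calls were lost with no trend in the prior variance (adjusted p = 0.0646 for Itgb1 and 0.121 for Itgb8). Itgb3, Itgb4 and Itgb5 were not called in either genotype. Itgb1bp1, an intracellular protein that binds the tail of Itgb1, differed by 0.25 in WT and 0.18 in KO (adjusted p = 0.202 and 0.364).

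**Figure D3:**
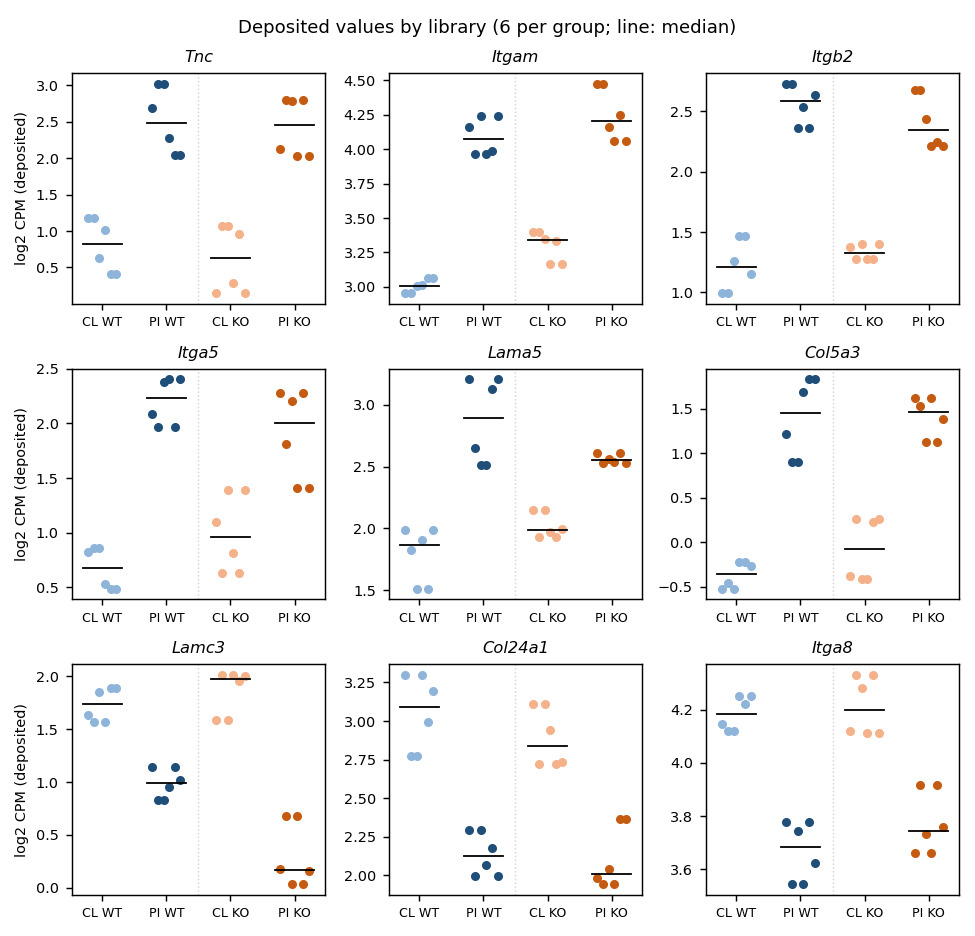
Deposited log2 CPM in each library for 8 members and for Col5a3, which is no member (6 libraries per group; the line is the median; the 2 lowest and the 2 highest values of a group are tied; WT and KO come from separately scaled tables, divided by the dotted line). In each of the 9 genes all 6 deposited PI values lie on one side of the 6 CL values of the same genotype. The tied ends hide the lowest and highest library of a group, so the unaltered values may overlap. Col5a3 may be listed for its PI values, which would favour its direction. Deposited values were apart in this way for 32.8% of all genes in WT and 34.3% in KO.

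Members were also compared between the 2 genotypes, whose PI and CL libraries come from different animals. All 10 members called in KO were among the 21 called in WT, which is 47.6% of the WT calls and 100% of the KO calls. Over all genes, 55.9% of WT calls were called in KO and 59.3% of KO calls in WT, and 5.98% of all genes were called in both. The 10 were Tnc, Itgam, Itgb2, Itga6 and Lama5, higher in PI, and Col24a1, Col19a1, Lamc3, Itga4 and Itga8, lower in PI. PI and CL differed in the same direction in WT and KO for 49 of the 58 members (84.5%), beside 71% of all genes in both tables. Across the 58 members, Pearson's r between the WT and the KO difference was 0.85 and Spearman's rho 0.81, beside 0.58 and 0.56 across all genes. These describe genes that share libraries and are not independent. Of the 21 called members 20 had the same sign in both genotypes, Col16a1 being the exception.

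The difference between the genotypes in the change from CL to PI was tested itself, as an interaction over all 24 libraries, and no member was called, as was none of all genes (0%). By unadjusted p, 3 of the 58 members (5.17%) were under 0.05, beside 4.55% of all genes. They were Col16a1, whose change was 0.92 lower in KO than in WT (-0.92, SE 0.28), Col9a3, a chain of a cartilage-type collagen, whose change was higher in KO by 0.91 (SE 0.36), and Lamc3 (-0.82, SE 0.38). Each had an adjusted p of 0.992 by the trimmed-mean test. The 11 members called in WT and not in KO are therefore not shown to differ between the genotypes. For Itga5, for example, the 95% confidence interval of the PI-CL difference was 1.03 to 2.03 in WT and 0.15 to 1.66 in KO.

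**Figure D4:**
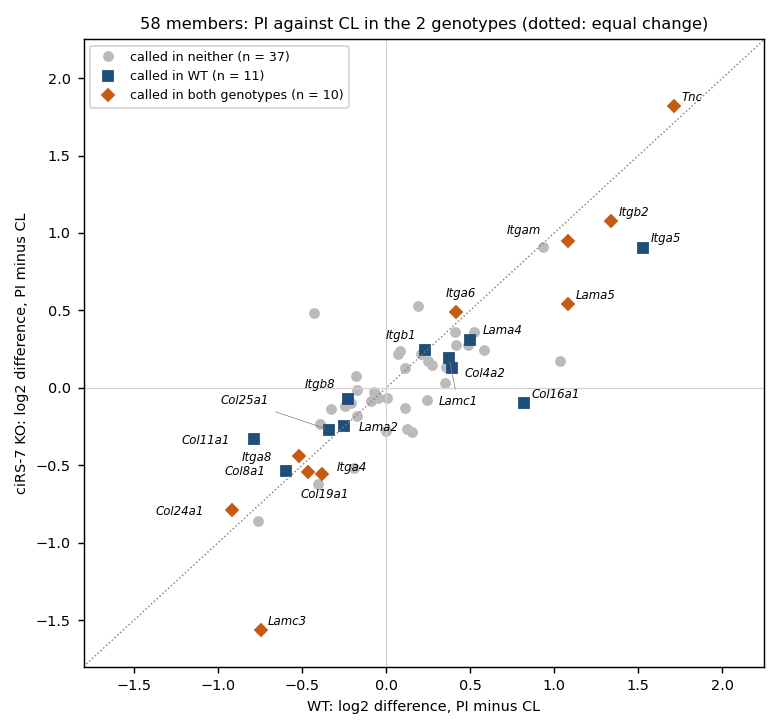
Log2 difference between PI and CL in WT (x axis) against that in ciRS-7 KO (y axis) for the 58 members; the dotted line marks equal change. The 10 members called in both genotypes (diamonds) lie near the line except Lamc3 and Lama5, and Col16a1 is the called member farthest from it.

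The comparison of KO with WT within PI and within CL asked whether members depended on ciRS-7. These comparisons use the same libraries as those of PI with CL, so the 4 sets of values are not independent. In PI, no member was called, where 0.0208% of all genes were (0.00692% higher and 0.0138% lower in KO), and 4 of the 58 (6.9%) reached an unadjusted p below 0.05, beside 5.75% of all genes. In CL, no member was called either, where 0.0279% of all genes were (0.014% in each direction), and 7 (12.1%) reached an unadjusted p below 0.05, beside 5.73% of all genes. The deposited values, whose spread is understated, gave 12 calls in PI and 11 in CL by limma, and 11 and 10 with the replicate number as a block. That block is no pairing, since KO and WT animals differ. The median difference, KO minus WT, was -0.02 in PI and 0.07 in CL, beside 0.00 over all genes in both, and single members ranged from -0.69 to 0.63 in PI and from -0.91 to 0.96 in CL. The SE of a difference was 0.18 in PI and 0.17 in CL at the median of the members.

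The members with the smallest p in PI were fibrillar and fibril-associated collagens. Col3a1 had a lowest, median and highest of 2.26, 2.46 and 2.67 log2 CPM in PI KO and 1.63, 1.81 and 2.04 in PI WT, a difference of 0.63 (SE 0.21, adjusted p = 0.854 by the trimmed-mean test). Its tail-to-tail neighbour Col5a2, 24614 bases away on chromosome 1, stood at 2.16, 2.37 and 2.55 in PI KO and 1.44, 1.86 and 1.9996 in PI WT, a difference of 0.59 (SE 0.23, adjusted p = 0.854 by the trimmed-mean test). Col16a1 stood at 2.04, 2.24 and 2.57 in PI KO and 2.64, 2.75 and 2.95 in PI WT, a difference of -0.50 (SE 0.20, adjusted p = 0.854 by the trimmed-mean test). The deposited ranges did not overlap for these 3, which was so for 9 of the 58 members in PI and for 14.1% of all genes.

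In CL the smallest p belonged to Col9a3 (chromosome 2, 180597790 to 180622189), at a lowest, median and highest of 0.42, 0.48 and 0.64 log2 CPM in CL KO and 1.30, 1.47 and 1.51 in CL WT. The difference was -0.91 (SE 0.24, adjusted p = 0.564 by the trimmed-mean test). Of the exon bases of Col9a3, 6.07% lie under exons of Tcfl5 on the opposite strand. Col1a2 (chromosome 6, 4504814 to 4541544) stood at 3.15, 3.19 and 3.24 in CL KO and 2.39, 2.56 and 2.88 in CL WT, a difference of 0.58 (SE 0.17, adjusted p = 0.638 by the trimmed-mean test). Col11a1 stood at 3.42, 3.53 and 3.75 in CL KO and 3.78, 4.08 and 4.26 in CL WT, a difference of -0.48 (SE 0.17, adjusted p = 0.791 by the trimmed-mean test). Ranges were apart for 10 of the 58 members in CL and for 13.5% of all genes. In the comparison of PI with CL they were apart for 32 members in WT (32.8% of all genes) and 27 in KO (34.3%).

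**Figure D5:**
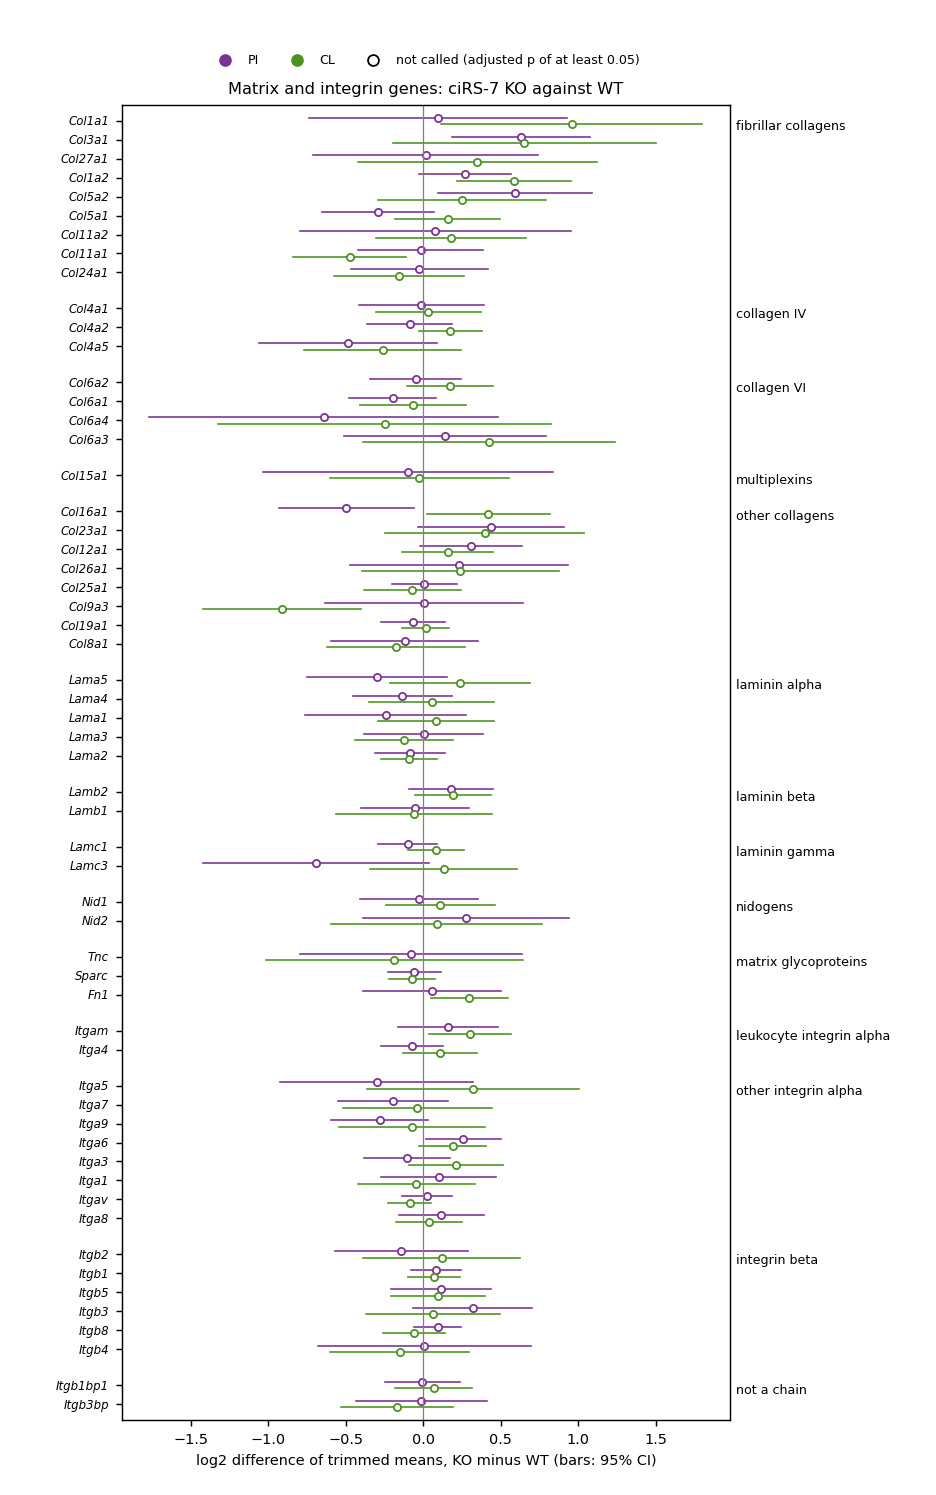
Difference between ciRS-7 KO and WT for the members by family, within PI (purple) and within CL (green), as the log2 difference of trimmed means with its 95% confidence interval. All points are open because no member was called; Col9a3 and Col1a1 in CL, at -0.91 and 0.96, lie farthest from 0.

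Genes that assemble the matrix or act beside the members were followed with a list of 78 genes. In WT 15 of the 67 listed were called, 13 higher and 2 lower, and in KO 14 of 68, 11 higher and 3 lower, which is 22.4% and 20.6% of the list beside 10.6% and 10% of all genes. Limma on the deposited values called 38 and 43, and 39 and 42 with the replicate block, while with no trend in the prior variance the KO count went to 8. The comparison of genotypes in CL lists fewer genes, 64 of the 78. Some listings may therefore rest on PI values, which would favour higher calls. Among enzymes and chaperones of collagen assembly and crosslinking, 3 of 16 were called in WT and 4 of 17 in KO, all higher. The shares were 18.8% and 23.5%, beside 10.6% and 10% of all genes. In CL, the comparison of genotypes lists 15 of these assembly genes, so the same limit holds for them. Lox, lysyl oxidase, which crosslinks collagen and elastin, rose from a median of -0.20 to 2.17 log2 CPM in WT (by 2.47, SE 0.27, 5.52-fold, adjusted p = 0.000147) and from 0.29 to 2.81 in KO (by 2.54, SE 0.23, 5.83-fold, adjusted p = 3.67e-05). Serpinh1, the collagen chaperone Hsp47, rose by 1.19 (SE 0.15, adjusted p = 0.000448) in WT and by 1.17 (SE 0.16, adjusted p = 0.000778) in KO. P4hb, a subunit of prolyl hydroxylase and a disulfide isomerase, rose by 0.36 and 0.45 (adjusted p = 0.00686 and 0.00106). The fourth call in KO was P4ha3, a catalytic subunit of prolyl hydroxylase (1.28, SE 0.30, adjusted p = 0.0176). No fibrillar collagen chain among the members was called higher in either genotype. Col5a3, which is no member, was higher in both (1.76 in WT and 1.47 in KO). It is not listed where CL is compared between genotypes, so its listing may rest on its PI values, which would favour this direction.

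Of 24 other matrix genes listed, 4 were called in WT, all higher, and 5 in KO, 3 higher and 2 lower. The shares were 16.7% and 20.8%, beside 10.6% and 10% of all genes. Spp1, osteopontin, a ligand of Itgav integrins, rose by 1.65 (SE 0.18, adjusted p = 0.00016) in WT and by 1.46 (SE 0.31, adjusted p = 0.0109) in KO. Decorin (Dcn), a proteoglycan of fibroblasts that binds fibrillar collagen, rose by 1.32 (SE 0.18, adjusted p = 0.000654) and 1.11 (SE 0.21, adjusted p = 0.00512), and Thbs1, thrombospondin-1, by 2.06 (SE 0.42, adjusted p = 0.00733) and 1.79 (SE 0.47, adjusted p = 0.0314). The fourth call in WT was Hspg2, perlecan, which links laminin and collagen IV (0.89, SE 0.20, adjusted p = 0.014). Tnr and Bcan, components of the perineuronal matrix, were the 2 lower calls in KO (fell by 0.26 and 0.41, adjusted p = 0.0277 and 0.0474).

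At the cytoplasmic tail of integrins, 7 of 22 listed adhesion genes were called in WT (5 higher, 2 lower) and 4 of 22 in KO (3 higher, 1 lower). The shares were 31.8% and 18.2%, beside 10.6% and 10% of all genes. Talin (Tln1), which activates integrins, rose by 0.42 in WT and 0.49 in KO (SE 0.07 and 0.10, adjusted p = 0.00232 and 0.00753). Filamin A (Flna), an actin crosslinker that binds beta chains, rose by 0.69 in both (SE 0.10 each, adjusted p = 0.0011 and 0.00091). Fermt3, the kindlin of blood cells and microglia, which serves Itgb2, rose by 1.19 and 1.26 (SE 0.27 and 0.26, adjusted p = 0.0126 and 0.00894), and Vasp rose by 1.05 in WT (SE 0.20, adjusted p = 0.0044). Of 5 listed counter-receptors on other cells, Icam1, the ligand of Itgb2 integrins, was the only call, higher by 1.83 (SE 0.42, adjusted p = 0.0148) in WT and 1.44 (SE 0.42, adjusted p = 0.0457) in KO. That call made up 20% of the counter-receptors in each genotype, beside 10.6% and 10% of all genes. The CL WT median of Icam1, -0.97 log2 CPM, was near the limit of 3 reads. The comparison of genotypes in CL lists 4 counter-receptors, so a listing may rest on PI values, which would favour higher calls. No gene of the list of 78 was called between KO and WT, in PI or in CL, beside 0.0208% and 0.0279% of all genes. At an unadjusted p under 0.05 there were 4 in PI and 6 in CL. Those were 5.97% and 9.38% of the genes listed, beside 5.75% and 5.73% of all genes.

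Markers of cell types that make or carry these proteins were read beside the members. Their counts of calls between PI and CL are to be read beside the 10.6% of all genes called in WT and 10% in KO. Of 7 markers of microglia and macrophages, 4 were called in each genotype, 3 higher and 1 lower, and their summed level was 160 to 171 CPM in CL WT (median 163) and 169 to 190 in PI WT (median 178). In KO the sum was 169 to 183 CPM in CL (median 179) and 183 to 222 in PI (median 212). C1qa rose by 0.69 in WT and 0.79 in KO (adjusted p = 0.00119 and 0.00278), while P2ry12, lost by reactive microglia, fell by 0.82 and 0.75 (adjusted p = 0.0139 and 0.00303). Itgam and Itgb2 thus rose beside part of this list, and its share in their change was not tested. Of 8 markers of infiltrating neutrophils and monocytes, the tables of PI and CL list 1, Csf3r, at a median of 1.58 CPM in CL WT and 1.56 in PI WT and of 2.32 in CL KO and 1.86 in PI KO, with no call. The table of KO and WT in PI lists S100a8 and S100a9 too, and the sum of the 3 was 3.79 to 5.75 CPM in PI WT and 5.21 to 11.3 in PI KO. S100a8 differed by 1.16 (SE 0.46) and S100a9 by 0.77 (SE 0.50) between these groups (adjusted p = 0.854 and 0.877), and their levels in CL were not analysed here. The part of such cells in the rise of Itgam and Itgb2 was not tested.

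None of 8 endothelial markers was called in WT and 1, Slco1a4, was lower in KO, and the summed level overlapped between CL and PI in both genotypes (86.3 to 126 and 84.8 to 127 CPM in WT, 96.0 to 115 and 97.1 to 108 in KO). Single endothelial markers lay above 0 in 7 of 8 cases in each genotype, with a median difference of 0.35 in WT and 0.14 in KO and 3 and 4 markers at an unadjusted p below 0.05. The WT differences of Col4a2, Lamc1, Lama4 and Itga6 were 0.37 to 0.50, and that of Lama5 was 1.08. In KO these members differed by 0.13, 0.19, 0.31, 0.49 and 0.54, in the same order. The part of endothelial RNA in these differences was not tested. Pericyte and smooth muscle markers had no call among the 7 listed of 8, and their summed levels overlapped too. Of 7 fibroblast and meningeal markers, which include the member Col1a1, 1 was higher and 1 lower in each genotype: Dcn, given above, and Igf2, which fell by 0.76 and 0.77 (adjusted p = 0.000367 and 0.0114). Without Col1a1, their summed level was 101 to 112 CPM in PI WT against 91.8 to 108 in CL WT, and 102 to 108 in PI KO against 89.5 to 106 in CL KO. Of 6 neuronal markers, 2 were lower in each genotype. Their summed level was 4677 to 5264 CPM in PI WT against 5562 to 6075 in CL WT, and 4484 to 5061 in PI KO against 5627 to 5835 in CL KO, so PI lay below CL in both. Of 5 astrocyte markers, 1 was higher and 2 lower in WT, and 1 was higher and 1 lower in KO, with a summed level of 7207 to 7602 CPM in CL WT and 6224 to 6626 in PI WT, and of 6051 to 6735 in PI KO against 7223 to 7724 in CL KO. Of 5 oligodendrocyte markers, 1 was lower in WT and none was called in KO. Their median difference was -0.36 in WT and -0.16 in KO, and their summed level was 1182 to 1679 CPM in PI WT against 1718 to 1870 in CL WT, and 1319 to 1507 in PI KO against 1387 to 1941 in CL KO. The 1 choroid plexus marker listed, of 4, was not called. The part of these cell types in the levels of members that were higher or lower in PI was not tested. The haemoglobin genes Hbb-bs, Hba-a2, Hba-a1 and Hbb-bt were not called between PI and CL. Their differences were 0.47, 0.97, 1.14 and 0.46 in WT (SE 0.48 to 0.90). In KO they were 0.84, 0.54, 0.43 and 0.39 (SE 0.55 to 0.85). With SE this wide, the lack of a call does not show equal levels.

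Several members lie beside each other or under other genes, and the sources used here do not give how reads were assigned to strand or to shared bases. Col6a2 and Col6a1 follow each other on chromosome 10, and Col1a1 and Itga3 lie tail to tail on chromosome 11. Exons of a transcript on the opposite strand cover 6.27% of the exon bases of Lamc3 (Gm13441), 5.05% of Itga8 (E030013I19Rik), 3.86% of Lama2 (Gm48084) and 2.27% of Tnc (8030451A03Rik). For these genes reads of the other strand cannot be told apart unless counting used strand.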

How the data were processed

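Cortex RNA was ribosome-depleted and made into CORALL total RNA libraries, per the labels' protocols. The authors deposited log2 CPM values in 4 tables, 1 per pair of groups, per the file headers, and each column was matched to a sample by its label. The build mm10 is given in the submitters' processing notes; the aligner, counting, use of strand, filter and scaling are not given in the sources used here. Each table was scaled on its own, so groups were compared within a table; the interaction is the difference between such comparisons from 2 tables. Within each group, 100% of genes had their 2 lowest and 2 highest values tied at the quartiles, from which the 4 inner values were solved. Their trimmed means were tested with the Winsorized sum of squares, 6 degrees of freedom for 2 groups and 12 for the interaction, and limma 3.58.1 (R 4.3.3) empirical Bayes with a trend; the code was tested on simulated data. Depth was read from low values, of which 84.6% to 90.8% were whole reads within 0.03 read. Depth limits cover counting error only, and p-values measure the spread between the animals within a group. For PI against CL and for the interaction the tests are unpaired, so they do not measure the spread of the difference within an animal.

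Members and gene lists were chosen with earlier results of these data known. Named were the members called in a genotype, the member with the smallest p in a family without calls, the 3 smallest p per genotype comparison and interaction, and up to 3 called genes per sublist; others named were chosen after their values were seen. Same-numbered CL and PI libraries come from the same animal by title, and their deviations from the group means correlated at -0.01 to 0.18 in WT and -0.04 to 0.17 in KO over genes. Alternatives were limma on the deposited values with and without a replicate block, no trend, re-centring, a minimum of 1 CPM, log2(CPM + 0.5), group medians, and, chosen after seeing the data, leaving out the shallowest library. All 58 members matched GENCODE M21 on GRCm38 by symbol. The values of 1 member are not reported here; it stays in the counts and medians.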

Additional observations from a re-analysis of the deposited data

Results flagged for a closer look

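Col5a3, a fibrillar collagen chain of type V, fits the rule on symbols but is no member, because the table comparing genotypes in CL does not list it. It was higher in PI than in CL in both genotypes. Its listing there may rest on its PI values, which would favour that direction, and its CL values were not far above the limit of 3 reads. In WT its lowest, median and highest deposited values were -0.52, -0.36 and -0.22 log2 CPM in CL and 0.90, 1.45 and 1.83 in PI, a rise of 1.76 (SE 0.36, 3.39-fold, adjusted p = 0.00787 by the trimmed-mean test). In KO they were -0.41, -0.08 and 0.27 in CL and 1.13, 1.46 and 1.62 in PI, a rise of 1.47 (SE 0.34, 2.78-fold, adjusted p = 0.0164 by the trimmed-mean test). The deposited values of PI and CL did not overlap in either genotype, which was so for 32.8% of all genes in WT and 34.3% in KO. Between PI KO and PI WT it differed by 0.01 (SE 0.33, adjusted p = 0.997 by the trimmed-mean test). No single library could be looked at as an outlier, because the values at each end of a group are tied.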

How the results depend on the processing

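The count of members called in the comparison of PI with CL was most sensitive to the test. In WT it went from 21 to 41 with limma on the deposited values, to 42 with the replicate block and to 12 with no trend in the prior variance, and it was 21 after re-centring, with a minimum of 1 CPM and with log2(CPM + 0.5). In KO it went from 10 to 34 with limma on the deposited values, to 35 with the replicate block and to 31 without CL KO replicate 6 on those values, while no trend, re-centring, the minimum and the pseudocount gave 8, 9, 11 and 11. All 21 and all 10 stayed called on the deposited values, with and without the block. With the spread understated there, this outcome was nearly fixed in advance and says nothing on how firm the calls are. Between KO and WT the count of 0 went to 12 in PI and 11 in CL on the deposited values, to 11 and 10 with the replicate block, and to 11 in CL without CL KO replicate 6. The interaction went from 0 to 9 on the deposited values and stayed at 0 through the 2 tables of KO and WT. The list of 78 matrix genes went from 15 to 38 in WT, 39 with the block; from 14 to 43 in KO, 42 with the block, 42 without CL KO replicate 6 and 8 with no trend; and from 0 to 12 in PI and 11 in CL, 10 and 10 with the block, and 9 in CL without that library. Deposited values understate the spread by construction. With no trend, the WT calls of Itga4, Itga6, Lamc1, Itgb1, Col11a1, Col4a2, Col8a1, Lama4 and Itgb8 (adjusted p 0.0608 to 0.121 by the trimmed-mean test) and the KO calls of Itga8 and Col24a1 (0.0736 and 0.0594) were lost. The cause was not tested. Re-centring turned Col15a1 in WT, not called, from 0.008 to -0.025. Of 395 tested alternative values of named members, 329 kept direction and side of the threshold, 53 passed it, all on deposited values, 12 lost it and 1 reversed. Differences of group medians, 61 values, have no test and gave no count. The extremes of each group are lost, so leaving out single libraries in turn says little and was done for 1 library only. The alternative without CL KO replicate 6 was chosen after seeing the data.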
